A study of Mus musculus with 577 samples.

Results

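Zp1, Zp2 and Zp3 encode the glycoproteins that the mouse oocyte secretes to build the zona pellucida, the extracellular coat that lies between the oocyte and its innermost granulosa cells. The 3 genes were picked by symbol from every gene count table of the study, and they make up 3 of the 22060 protein-coding genes in those tables. Their reads were followed through 562 libraries with gene counts, out of 577 samples in all, and the other 15 samples gave exon and junction reads. Levels are given as RPM, the reads of a gene when those on all protein-coding genes of the library are scaled to 1000000, or as log2 (RPM+1).

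The oocytes and granulosa cells came from sections of ovaries of 8-week-old female mice, cut at 15 μm, stained with cresyl violet and isolated with laser capture microdissection (LCM), so a library holds what was left of a cell in the section. Alcohol-fixed sections were amplified with DRaqL-SC3-seq, SMART-Seq v4, DRaqL-SMART-Seq v4, LCM-seq or DRaqL-Smart-seq2, where DRaqL names lysis in a denaturing detergent that is then quenched, and sections fixed for 24 h in 10% formalin were amplified with DRaqL-Protease-Smart-seq2. Oocytes were labelled as from primary or from secondary-to-early antral follicles, and granulosa cells as neighboring or non-neighboring by whether they lay next to the oocyte. Pools of about 10 granulosa cells, bulk granulosa of single sectioned follicles, pairs of serial sections of the same oocyte and cells from 1 mouse, of which one ovary was sectioned and the other dissociated, completed the ovarian set. In that mouse the neighboring dissociated cells were those attached to the oocyte, the oocytes were labelled grown, and a cAMP analog was present during isolation. Its captured cells were amplified with DRaqL-Smart-seq2 and its dissociated cells with Smart-seq2 without DRaqL. Mouse embryonic stem cells (mESCs) kept with 2 kinase inhibitors and LIF, fresh or captured from sections, were the libraries without oocytes. No label ties a single cell to an animal, so single cells were compared by their ranges, means and SDs (over cells) and were not tested, and p-values between pools measure only the spread between pools.

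ZP2 and ZP3, with ZP1 as a cross-linker of their filaments, form the mouse zona, and all 3 proteins carry the ZP domain through which they polymerize. Transcription of the genes in oocytes depends on FIGLA, a basic helix-loop-helix factor that binds E-boxes as a dimer with the protein of Tcf3. After fertilization, ovastacin, the product of Astl, cleaves ZP2 and hardens the coat.

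In GRCm38, the build of the counts, Zp1 (ENSMUSG00000024734) lies at chr19:10914287-10920632 on the minus strand, with 12 exons and 623 codons in its reference transcript. Zp2 (ENSMUSG00000030911) lies at chr7:120126772-120145291 on the minus strand, with 18 exons and 713 codons. Zp3 (ENSMUSG00000004948) lies at chr5:135980099-135988624 on the plus strand, with 8 exons and 424 codons. The transcripts end within 13 to 49 bases of their stop codons, so coding sequence reaches almost to the 3′ end from which reads were primed. The last exon-exon junction of each gene is shown because the libraries read mostly the 3′ ends, with 30 bases of the upstream exon in lower case and 30 bases of the downstream exon in capitals.
Zp1 exon 11 to exon 12, minus strand, meeting at chr19:10914453-10914624: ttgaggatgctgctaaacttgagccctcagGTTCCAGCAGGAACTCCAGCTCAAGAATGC
Zp2 exon 17 to exon 18, minus strand, meeting at chr7:120132546-120133338: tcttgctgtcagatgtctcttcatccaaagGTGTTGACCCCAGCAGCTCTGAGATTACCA
Zp3 exon 7 to exon 8, plus strand, meeting at chr5:135987608-135988400: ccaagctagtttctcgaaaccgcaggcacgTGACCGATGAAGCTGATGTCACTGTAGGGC

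The window from 250 bases before to 50 bases after the start of Zp3 is printed because E-boxes are the letters FIGLA is known to bind. RefSeq (GRCm38.p6) places it at chr5:135979855-135980154 on the plus strand, and 1 of the 3 genes was matched in that table. Each CANNTG, read on both strands since it reads alike on either, is in capitals.
Zp3 promoter: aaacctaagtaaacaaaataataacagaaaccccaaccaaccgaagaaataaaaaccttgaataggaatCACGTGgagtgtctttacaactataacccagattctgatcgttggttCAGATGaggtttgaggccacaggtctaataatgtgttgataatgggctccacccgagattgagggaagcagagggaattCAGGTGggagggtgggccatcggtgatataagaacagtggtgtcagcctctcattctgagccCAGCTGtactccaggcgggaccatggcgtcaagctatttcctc
The 4 matches begin at positions -181 (CACGTG), -134 (CAGATG), -55 (CAGGTG) and 8 (CAGCTG), counted from the start. A CANNTG occurs in 72.3% of 32851 promoter windows of this length and 4 or more in 6.49%, and CACGTG in 7.15%. The letters TATAA, searched on both strands, begin at -160 and at -29 and occur in 24.9% of the windows. These are matches of letters, and binding was not measured.

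All oocyte libraries of the count tables held reads of each of the 3 genes. Ranked by mean RPM in DRaqL-SC3-seq oocytes from secondary-to-early antral follicles, Zp3 stood 6th, Zp2 14th and Zp1 24th of 19944 genes with a read. In oocytes from primary follicles Zp2 stood 3rd, Zp3 11th and Zp1 54th of 19473. In primary oocytes of the other methods Zp1 stood between rank 215 (formalin) and rank 343 (DRaqL-SMART-Seq v4), and Zp3 between rank 14 (SMART-Seq v4) and rank 97 (DRaqL-SMART-Seq v4). The zona genes together took a median of 0.969% of the protein-coding reads in the former (0.608 to 1.99%, n = 30) and 0.869% in the latter (0.311 to 1.61%, n = 14). The summed share thus overlapped between stages, while Zp2 stood higher and Zp1 and Zp3 lower in the ranking at the primary stage. These ranks compare counts and not molecules per length, which the exon libraries address further on.

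Zp1 had higher RPM in oocytes from secondary-to-early antral than from primary follicles. By DRaqL-SC3-seq its lowest, median and highest values were 1182, 2024 and 3226 RPM at the later stage (n = 30) and 601, 1222 and 2157 RPM at the earlier stage (n = 14). On the log2 scale the means were 10.98 ± 0.42 and 10.11 ± 0.58 (SD), a difference of 0.87, with 15 of the 30 later oocytes inside the range of the primary ones. By SMART-Seq v4 the medians were 1650.3 (n = 11) and 463 RPM (n = 7), a difference of mean log2 levels of 1.46, and by DRaqL-SMART-Seq v4 they were 1179 (n = 9) and 340.1 RPM (n = 6), a difference of 1.66. After formalin the 5 primary oocytes had 159, 259, 268, 691 and 942 RPM. The 7 later oocytes after formalin ran from 1004 to 1852 RPM with a median of 1525, so these ranges did not overlap, and the difference was 1.99. The share of all genes without overlap was not counted.

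Zp3 was also higher at the later stage by RPM, with a wide spread among primary oocytes. Its DRaqL-SC3-seq values ran from 3023 through a median of 4715 to 10003 RPM later and from 962 through 2083 to 7487 RPM earlier, a difference of 1.02 in mean log2 level. The differences were 0.70 by SMART-Seq v4, 2.25 by DRaqL-SMART-Seq v4 and 1.83 after formalin. Primary oocytes after formalin had 225, 342, 792, 3571 and 3083 RPM, and the 7 later ones 2382 to 5875 RPM. Ranges overlapped in all 4 methods. In DRaqL-SMART-Seq v4 the summed reads of the groups gave a difference of only 0.73, since sums weight the deepest libraries.

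Zp2 did not follow. Its RPM was lower on average at the later stage in the 3 alcohol-fixed methods, with differences of -0.64 (DRaqL-SC3-seq), -0.69 (SMART-Seq v4) and -0.42 (DRaqL-SMART-Seq v4) on the log2 scale, and 0.30 higher after formalin (-0.09 to 0.63 on leaving out each primary oocyte in turn). The DRaqL-SC3-seq values were 1429.6, 2797 and 7025 RPM (lowest, median, highest) later and 1484, 4933 and 6938 RPM earlier, and 27 of the 30 later oocytes fell inside the primary range. Per read of the ERCC spike-in RNA, Zp2 was instead higher at the later stage in the 3 methods whose spike-in counts were used here, by 1.13 (SMART-Seq v4, a change of sign), 2.71 (DRaqL-SMART-Seq v4, a change of sign) and 2.19 (formalin). On that scale Zp1 was higher by 3.28, 4.79 and 3.88 and Zp3 by 2.52, 5.38 and 3.72 in the same methods, so the spike-in scale put all 3 genes up and kept Zp2 lowest among them.

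**Figure D1:**
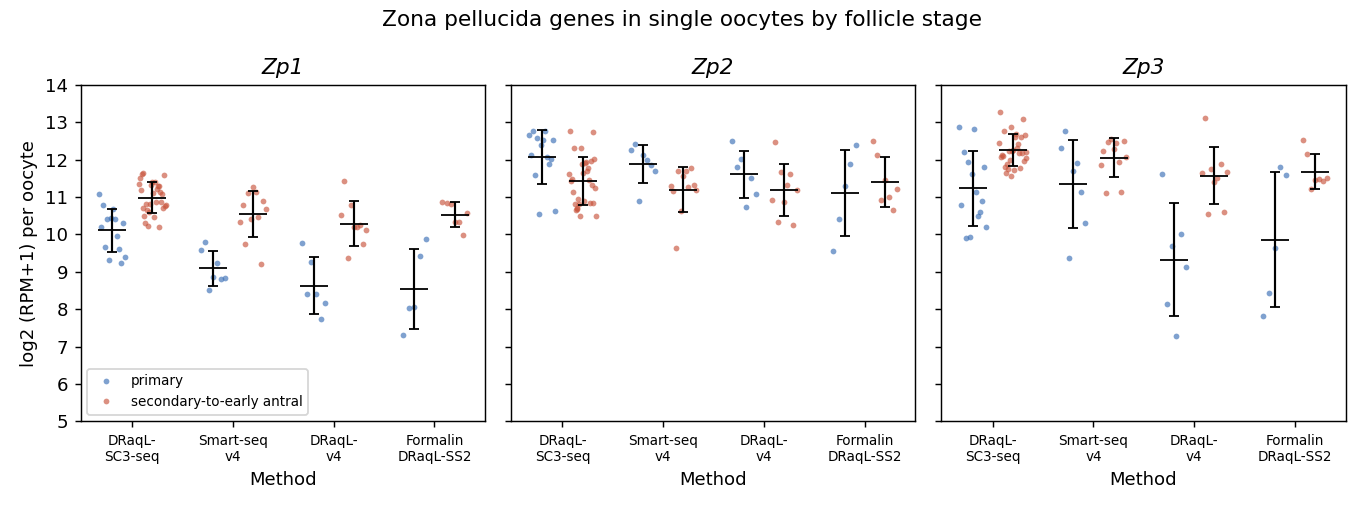
Each point is an oocyte, the y axis is its log2 (RPM+1) for the named gene, and the x axis gives the method, with primary follicles in blue and secondary-to-early antral follicles in red. Bars are the mean with the SD over cells. Zp1 and Zp3 sit higher in red in all 4 methods, by 0.87 to 1.99 and 0.70 to 2.25, whereas Zp2 differs by -0.69 to 0.30 on this scale and by 1.13 to 2.71 per spike-in read in the 3 methods so scaled.

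The background to these differences was broad. Of the 7220 genes whose log2 (RPM+1) averaged 4 or more in DRaqL-SC3-seq oocytes, 33.5% were higher by 1 or more at the later stage and 12.9% lower by 1 or more, with no test. The corresponding shares were 28% and 15.7% by SMART-Seq v4, 34.7% and 20.1% by DRaqL-SMART-Seq v4, and 26.2% and 23.9% after formalin. Of 5377 genes kept in all 4 methods, 36.2% had a higher mean at the later stage in every method, as Zp1 and Zp3 did. Reaching a difference of 1, as Zp1 did in 3 and Zp3 in 3 of the 4 methods, was thus common among oocyte transcripts.

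The balance between the genes inside an oocyte needs no scaling to the rest of the library, and it differed more clearly by stage. The ratio was examined after the levels had been seen, and how many other pairs of genes separate the stages was not counted. Of the 5377 genes kept in all 4 methods, 36.2% were higher and 21.9% lower at the later stage in every method. Pairs with such a contrast need therefore not be rare. The log2 ratio of Zp3 to Zp2 was 0.82 ± 0.28 (SD, n = 30) in later DRaqL-SC3-seq oocytes and -0.84 ± 0.63 (n = 14) in primary ones. The ranges, 0.34 to 1.55 and -1.68 to 0.29, did not overlap. By DRaqL-SMART-Seq v4 the ratio was 0.38 ± 0.22 (n = 9) against -2.29 ± 1.09 (n = 6), again without overlap. After formalin it was 0.27 ± 0.29 (n = 7) against -1.26 ± 0.78 (n = 5), with the highest primary oocyte at -0.095 and the lowest later oocyte at -0.019. By SMART-Seq v4 it was 0.85 ± 0.64 (n = 11) against -0.54 ± 0.71 (n = 7), and these ranges overlapped through a single later oocyte at -0.65.

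The ratio of Zp1 to Zp2 behaved alike. It was higher at the later stage by 1.52 (DRaqL-SC3-seq), 2.15 (SMART-Seq v4), 2.09 (DRaqL-SMART-Seq v4) and 1.68 (formalin) on the log2 scale. In DRaqL-SC3-seq 2 of 30 later and 3 of 14 primary oocytes lay inside the other group's range, in SMART-Seq v4 1 of each, and in the other methods none. The ratio of Zp3 to Zp1, in contrast, differed by 0.14, -0.76, 0.59 and -0.16 in these methods, with overlapping ranges in each. Among the 3 genes, the stage contrast therefore lay between Zp2 and the other 2 rather than between Zp1 and Zp3.

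**Figure D2:**
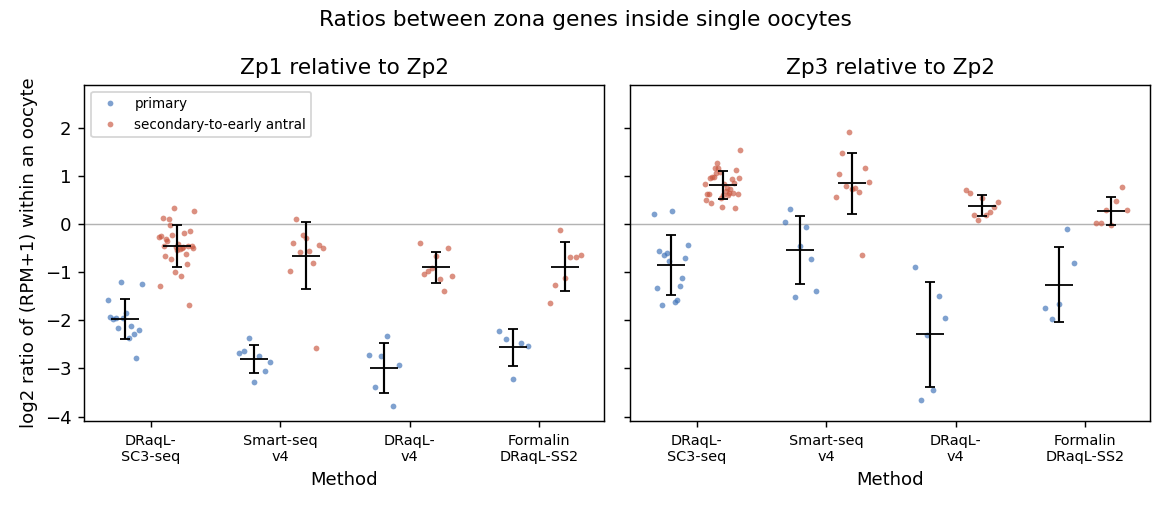
The y axis is the log2 ratio of (RPM+1) of Zp1 to Zp2 (left) and of Zp3 to Zp2 (right) within each oocyte, by method on the x axis, with the mean and SD over cells as bars. Later oocytes (red) lie above primary ones (blue) without overlap in DRaqL-SMART-Seq v4 and after formalin in both panels, and in the right panel also in DRaqL-SC3-seq, while 1 red point of SMART-Seq v4 lies among the blue points.

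Stage went with the cell number or the library pool in most of these data, and no label says what the cell numbers record. The DRaqL-SC3-seq oocytes numbered up to 32 were from the later stage and those above from primary follicles, except primary oocyte 29. The SMART-Seq v4 oocytes were split by library pool except for 1 later oocyte in the pool of the primary ones, and DRaqL-SMART-Seq v4 oocytes of the stages were in different pools throughout, so there stage and pool cannot be told apart. All formalin-fixed oocytes shared 1 pool, and the differences there, given above, were within it. Primary oocyte 29 had 2157, 6428 and 7487 RPM of Zp1, Zp2 and Zp3 and a Zp3 to Zp2 ratio of 0.22, near the top of the primary range. Its summed RPM of 12 other oocyte genes was 7962, against 1256 to 5300 in the other 13 primary and 7542 to 40856 in the later oocytes. The paper names these 12 genes or their families as strong contributors to the growth axis of the DRaqL-SC3-seq oocytes. A difference by stage was thus built into the list for that method. The later SMART-Seq v4 oocyte in the primary pool had 591, 3514 and 2243 RPM, a ratio of -0.65, and 7834 RPM of the 12 genes, against 432 to 2538 in the primary and 18251 to 26268 in the other later oocytes. In the other oocyte genes the former thus lay at the low end of the later oocytes and the latter between the groups.

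Across the 44 DRaqL-SC3-seq oocytes, which share a method but not a depth or a stage, Zp1 and Zp3 had a Pearson r of 0.85, Zp1 and Zp2 of 0.25, and Zp2 and Zp3 of 0.34. Within a stage r was 0.75 (later) and 0.81 (primary) for Zp1 and Zp2, 0.94 and 0.78 for Zp2 and Zp3, and 0.66 and 0.88 for Zp1 and Zp3. The 5 genes most like Zp1 by r were Astl (0.92), Tle6 (0.86), Zp3, Gm21969 (0.83) and Miox (0.83), and those most like Zp3 were Astl (0.89), Zp1, Miox (0.84), Tle6 (0.82) and Ccno (0.81). Those most like Zp2 were Gm14326 (0.83), 6820408C15Rik (0.82), Ube2c (0.82), 4930562C15Rik (0.81) and Gm14391 (0.81), none of which was on the other lists. In the 18 SMART-Seq v4 and 15 DRaqL-SMART-Seq v4 oocytes, r with Zp1 was 0.92 and 0.92 for Astl and 0.58 and 0.52 for Gm21969. There r with Zp2 was 0.63 and 0.81 for Ube2c, 0.78 and 0.59 for Gm14391 and 0.23 and 0.36 for 6820408C15Rik. Tle6 encodes a subunit of the subcortical maternal complex and Ube2c a ubiquitin-conjugating enzyme that works with the anaphase-promoting complex.

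Of the 6 genes for factors tied to zona transcription, 2 were lower by 1 or more at the later stage in DRaqL-SC3-seq oocytes and 0 higher, with a median of -0.51 beside 0.43 over all 7220 genes, of which 12.9% were lower by 1 or more. In each of the other 3 methods 3 of the 6 were lower. Of all genes kept, 15.7% (SMART-Seq v4), 20.1% (DRaqL-SMART-Seq v4) and 23.9% (formalin) were. Taf4b alone was higher by 1 or more, in DRaqL-SMART-Seq v4. Figla had 25.1, 76.6 and 166 RPM (lowest, median, highest) later and 149, 377 and 778 RPM earlier, and the difference of its mean log2 level, later minus primary, was -2.23, -2.18, -2.41 and -2.27 in the 4 methods. Sohlh1, an earlier-acting regulator of oocyte growth, had medians of 5.55 and 482 RPM and differences of -7.11 to -5.20. Tcf3, the FIGLA partner, differed by -0.56 in DRaqL-SC3-seq and by -1.505 to -1.40 in the other methods. Nobox, a homeobox regulator of oocyte genes, had medians of 802 and 809 RPM, Lhx8 232 and 315, and Taf4b 43.9 and 59.6, with overlapping ranges. By mean log2 level Taf4b was instead higher at the later stage, by 0.33, 0.66, 2.07 and 0.69 in the 4 methods. These differences are by RPM. Per spike-in read, which put the later stage higher by 1.82, 3.13 and 1.89 for a well-counted gene in SMART-Seq v4, DRaqL-SMART-Seq v4 and formalin, Figla differed by -0.36, 0.73 and -0.33, Sohlh1 by -3.83, -3.43 and -2.72, and Tcf3 by 0.40, 1.795 and 0.72. The direction of Figla thus turned in DRaqL-SMART-Seq v4 and that of Tcf3 in all 3 methods. Nobox, Lhx8 and Taf4b were higher at the later stage on that scale in each of these methods, by 1.81 to 5.11.

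Of the 5 genes that act on the finished coat or on sperm contact, 4 were higher by 1 or more at the later stage in DRaqL-SC3-seq, where 33.5% of the 7220 genes were, with a median difference of 1.78 beside 0.43. In SMART-Seq v4, DRaqL-SMART-Seq v4 and formalin 3, 3 and 4 of the 5 were, beside 28, 34.7 and 26.2% of all genes kept. Astl, whose protease cleaves ZP2, had medians of 802 and 227 RPM and differed by 1.72, 1.54, 1.92 and 1.81 in the 4 methods. Izumo1r, which encodes the sperm receptor JUNO, had medians of 320 and 9.82 RPM and differed by 4.35 to 5.35. Furin, a proprotein convertase, differed by 1.30 to 2.61, and Fetub, which encodes an ovastacin inhibitor, by 0.75 to 1.78. Cd9, needed for sperm-egg fusion, differed by -0.84 in DRaqL-SC3-seq and by 0.63 to 0.88 in the other methods. Among 11 other genes with a ZP domain, 1 passed the level minimum in DRaqL-SC3-seq oocytes. This was Umodl1, with medians of 607 and 9.77 RPM and a difference of 5.54, while Umod, Tecta, Cuzd1, Gp2, Oit3 and Eng had a median of 0 RPM at both stages.

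Serial sections showed how well a value held within an oocyte. For oocyte 1 the sections had 4770 and 4081 RPM of Zp1, 11344 and 8219.6 of Zp2, and 18646 and 13807 of Zp3. Oocyte 8 had 1223 and 1264, 2062 and 2231, and 4229 and 4853 RPM. Over the 8 oocytes the median absolute log2 difference between sections of the same oocyte was 0.25 for Zp1, 0.21 for Zp2 and 0.24 for Zp3, and between sections of different oocytes 0.69, 0.68 and 0.72 over all such pairs. The widest pair was oocyte 3, with differences of 0.66, 0.72 and 0.92. Differences between oocytes were thus typically larger than between sections of the same oocyte. The Zp3 to Zp2 ratio over the 16 sections was 0.86 ± 0.20 (SD).

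SMART-Seq v4 with and without DRaqL gave similar zona levels in later oocytes, and in primary oocytes Zp3 differed more. DRaqL-SMART-Seq v4 minus SMART-Seq v4 was -0.26 for Zp1, -0.02 for Zp2 and -0.48 for Zp3 at the later stage, each below its pooled SD of 0.61 to 0.66. In primary oocytes the differences were -0.46, -0.28 and -2.04, beside pooled SDs of 0.63, 0.57 and 1.36. The Zp3 values there ran from 156 to 3126 RPM with DRaqL (n = 6) and from 664 to 6921 RPM without (n = 7), and the ranges overlapped. The label text of 1 DRaqL-SMART-Seq v4 primary oocyte named formalin, and leaving it out changed no direction. In the mouse with one ovary sectioned and the other dissociated, captured oocytes (n = 8) and dissociated grown oocytes (n = 14) had medians of 1223 and 979 RPM for Zp1, 2552 and 1662 for Zp2, and 2446 and 2686 for Zp3. On the log2 scale captured minus dissociated was 0.30, 0.77 and -0.16, beside pooled SDs of 0.38, 0.50 and 0.40. The captured oocytes had a Zp3 to Zp2 ratio of -0.10 ± 0.46, with a highest value of 0.23, and the dissociated ones of 0.82 ± 0.26, with a lowest value of 0.35. These ranges did not overlap, and 1 mouse gives no replicate of the contrast. Captured oocytes were amplified with DRaqL-Smart-seq2 and dissociated ones with Smart-seq2, so isolation and amplification cannot be told apart. The oocytes compared may also have differed in stage, since one set was labelled secondary-antral and the other grown.

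Zona reads also appeared in granulosa libraries, at far lower levels than in oocytes. Mean log2 levels in oocytes exceeded those in single granulosa cells by 7.35 to 8.72 for Zp1, 7.63 to 10.29 for Zp2 and 6.64 to 9.56 for Zp3 across 6 comparisons within a method. From summed counts the differences were smaller, at 3.92 to 6.58 for Zp1, 4.35 to 7.36 for Zp2 and 4.42 to 6.57 for Zp3. Zp2 ranges of oocytes and granulosa cells overlapped in 1 of the 6 comparisons, by 1 cell on each side, whereas Zp3 ranges overlapped in all 6. The share of all genes without overlap between these cell types was not counted. Of the 57 single DRaqL-SC3-seq granulosa cells, 19 of 31 neighboring (61.3%, 95% Clopper-Pearson interval 42.2 to 78.2%) and 13 of 26 non-neighboring (50%, 29.9 to 70.1%) held a Zp1 read. Intervals of this kind cover counting error only. In mESCs, which have no oocyte beside them, Zp1 was read in 0 of 45 fresh and 3 of 36 captured libraries. Zp3, in contrast, was read in 39 of the 45 and 29 of the 36. Whether the mESC reads bear on those in granulosa cells was not tested.

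The tested comparison was that of pools of about 10 granulosa cells, 7 neighboring and 7 non-neighboring, with 3811945 to 8259281 protein-coding reads each. Zp3 had 44.7, 289, 15.4, 327, 314, 484 and 10.4 RPM in the neighboring pools 1 to 7. In the non-neighboring pools it had 4.56, 6.596, 0.917, 0, 0.880, 4.197 and 0.312 RPM. Every neighboring pool was above every non-neighboring one, and how many other genes did so was not counted. The log2 fold change was 6.23 (SE 1.17), with an adjusted p of 0.0217 by the edgeR quasi-likelihood test with Benjamini-Hochberg adjustment over 9704 genes.

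Zp1 had 2.43, 54.4, 13.6, 133, 249.2, 289 and 35.03 RPM in the neighboring pools and 1.68, 5.40, 0.262, 0.242, 1.06, 3.15 and 0.156 RPM in the others. Neighboring pool 1 lay inside the range of the non-neighboring pools and the other 6 lay above it. Its log2 fold change was 5.87 (SE 1.23, edgeR adjusted p = 0.0336). Zp2 had 40.8, 149, 185, 82.3, 82.4, 39.4 and 0 RPM in the neighboring pools and 2.88, 3.198, 0.262, 0.121, 0, 1.31 and 0 RPM in the others. The neighboring pool 7 had no Zp2 read beside 35.03 RPM of Zp1 and 10.4 RPM of Zp3. With a log2 fold change of 6.20 (SE 1.52), Zp2 missed the threshold in edgeR (adjusted p = 0.0946).

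The test thus called 2 of the 3 zona genes, where it called 0.453% of the 9704 genes, that is 44, all of them higher in neighboring pools. By p-value Zp3 stood 13th, Zp1 34th and Zp2 61st. The call of Zp1 was lost on leaving out pool number 3, 4, 5, 6 or 7 (edgeR adjusted p from 0.0532 to 0.270), and that of Zp3 on leaving out 4, 5 or 6 (0.0776 to 0.146), while the fold changes stayed between 5.45 and 6.67. DESeq2, with 409 genes called, gave Zp2 an adjusted p of 0.000117.

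**Figure D3:**
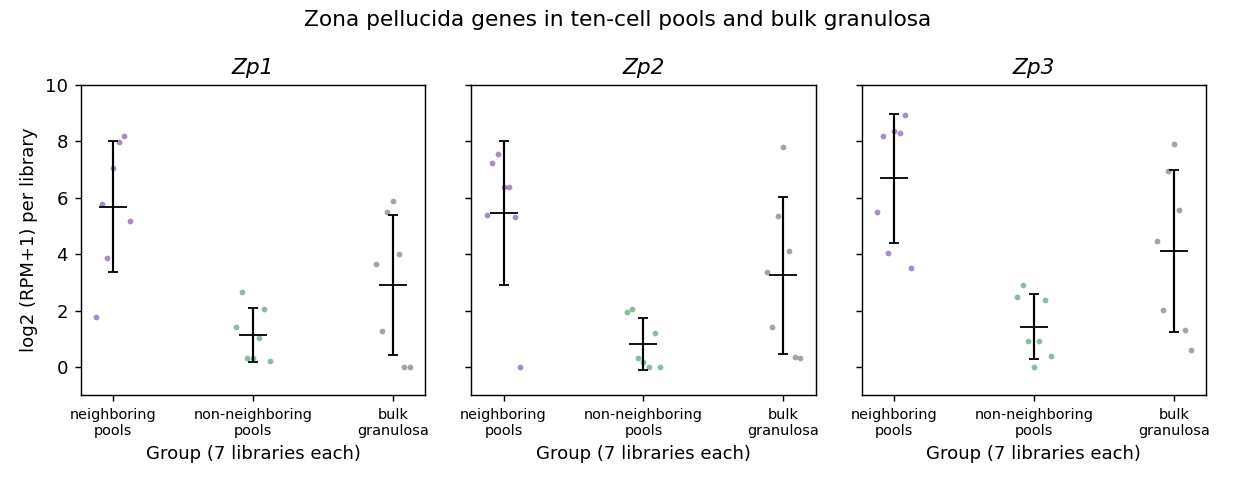
The y axis is log2 (RPM+1) of each library and the x axis the group, with 7 libraries a group and the mean and SD as bars. Neighboring pools lie above non-neighboring ones without overlap for Zp3, with 1 pool inside their range for Zp1 and 1 pool at 0 for Zp2, and bulk granulosa spans both.

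Other oocyte genes moved with the zona genes in the pools. Of 12 oocyte genes outside the zona, all 12 were tested and 8 were called, higher in neighboring pools, among them Gdf9, an oocyte growth factor (6.28), Bcl2l10 (6.30) and Oosp1 (6.47). The paper had reported Obox family genes as higher in neighboring single cells, so the list was not chosen blind to position. Their median log2 fold change was 5.92, beside -0.01 over all genes tested, and their summed level was 675 to 8469 RPM in neighboring and 2.03 to 141 RPM in non-neighboring pools. Bmp15 (3.24), Oog1 (3.13), Obox3 (2.57) and the sperm receptor gene Izumo1r (5.13) were not called, and Izumo1r is also in the coat and sperm-contact list. Of the zona transcription list 3 of 6 genes were tested and 0 called, Nobox being closest (6.59, edgeR adjusted p = 0.0768). All 5 genes of the coat and sperm-contact list were tested and 0 called, Astl being closest (5.27, edgeR adjusted p = 0.0752). Of the other ZP-domain genes 2 of 11 were tested and Umodl1 was called (7.79, edgeR adjusted p = 0.0236). How far reads of the adjacent oocyte account for zona reads in granulosa libraries was not tested. Fewer carrying cells and less RNA per cell cannot be told apart in a pool.

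Granulosa markers were alike in the pools, with a summed median of 7356 RPM in neighboring and 6902 RPM in non-neighboring pools for 10 genes, of which 6 were tested and 0 called. The 6 theca and interstitial genes had medians of 0.477 RPM (0 to 2071) and 892 RPM (40.2 to 5239), with 1 tested and 0 called, and their part in the result was not tested.

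Bulk granulosa libraries spanned much of the range of both kinds of pool. Zp3 had 20.9, 3.11, 124, 239, 46.5, 1.48 and 0.523 RPM in bulk libraries 1 to 7, and Zp1 11.5, 1.45, 43.7, 57.98, 15.1, 0 and 0 RPM. Zp2 had 9.27, 1.66, 40.3, 222, 16.4, 0.269 and 0.261 RPM. Bulk libraries 3 and 4 were highest and 6 and 7 lowest for all 3 genes. Against the mean of both kinds of pool the log2 differences were 0.39 (SE 0.97), 1.98 (SE 1.06) and 1.41 (SE 0.88) for Zp1, Zp2 and Zp3, and none was called, where edgeR called 0.101% of 11917 genes. Without bulk library 4 they were -0.21, 0.16 and 0.51.

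By mean level the single granulosa cells gave the same direction with much overlap. Mean log2 levels were higher in neighboring cells for each zona gene in all 8 method sets, by 0.04 to 4.54. The widest differences were in LCM-seq, 4.28 for Zp1, 3.84 for Zp2 and 4.54 for Zp3. There Zp3 had 0, 70.4 and 2023 RPM (lowest, median, highest) in 17 neighboring and 0, 0 and 171.5 RPM in 20 non-neighboring cells, with a read in 15 and 5 cells. DRaqL-Smart-seq2 gave 3.09, 1.97 and 2.14. Formalin-fixed cells gave 2.47, 2.50 and 1.76, with a Zp3 read in 12 of 12 neighboring and 9 of 12 non-neighboring cells. SMART-Seq v4 gave 0.51, 2.25 and 0.04, and DRaqL-SMART-Seq v4 0.53, 1.74 and 1.82. Ranges overlapped throughout.

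In DRaqL-SC3-seq the differences of 1.76, 1.08 and 1.09 were joined to the numbering of the cells. Among neighboring cells numbered up to 72, 8 of 22 had a Zp3 read (median 0 RPM), and above 72, 9 of 9 (median 107.9 RPM). Among non-neighboring cells the counts were 8 of 20 and 6 of 6 (medians 0 and 87.3 RPM). The 9 and 6 later-numbered cells thus carried zona reads in both positions. A separate table held 3 more cells that the study had set apart as mixed, with 318 RPM of Zp2 in the neighboring and 22.98 and 868 RPM in the non-neighboring cells. In the single mouse, neighboring minus non-neighboring was 1.72, 1.83 and 0.89 in captured and 0.63, 1.22 and 1.51 in dissociated cells. Among dissociated cells 8 of 14 neighboring and 13 of 21 non-neighboring held a zona read. Their median summed zona levels were 20.2 and 21.2 RPM, so medians did not follow the means there. The paper found oocyte-mixed profiles in some of these dissociated cells, more often in attached ones. Unlike in DRaqL-SC3-seq, such cells were kept in the dissociated groups here. Of 7 dissociated non-neighboring cells from library pools that held no oocyte, 0 had a Zp1 or Zp2 read and 1 a Zp3 read, against 9, 10 and 10 of 14 for Zp1, Zp2 and Zp3 in pools with an oocyte. Of the neighboring ones, 1, 2 and 3 of 8 had such reads in pools without and 3, 5 and 5 of 6 in pools with an oocyte. Library pool thus moved with zona reads in dissociated cells, and its part in the difference was not tested.

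Other oocyte genes were read along with the zona genes in single granulosa cells and in pools. The 12 oocyte genes had 9.41 reads for each zona read in neighboring DRaqL-SC3-seq cells and 8.71 in neighboring pools. Oocytes had 2.71 at the later and 0.298 at the primary stage, and the other single-cell methods gave 2.60 to 3.27 and 0.125 to 0.291 in oocytes of the 2 stages, with 5.52 in the dissociated grown oocytes. Since the list was taken from genes tied to oocyte growth in these data, a gap by stage was built in. Neighboring granulosa cells of the remaining methods had 4.15 to 9.35. High proportions were also seen in non-neighboring libraries, but not in every method. Non-neighboring pools had 15.8. Non-neighboring single cells ranged from 1.625 by DRaqL-SMART-Seq v4 to 14.6 by DRaqL-Smart-seq2, with 6.62 by LCM-seq and 6.15 by DRaqL-SC3-seq. Formalin-fixed non-neighboring cells and those of the single mouse lay between 1.625 and 6.15. The DRaqL-SMART-Seq v4 value lay below that of the later oocytes in each method, while neighboring cells there had 7.66. Neighboring DRaqL-SC3-seq cells numbered up to 72 had 17.4 and those above 72 had 6.97. Of zona reads in neighboring pools, 26.9% were of Zp1, 22.1% of Zp2 and 51.05% of Zp3, against 20.6, 29.7 and 49.7% in later and 13.2, 53.2 and 33.6% in primary oocytes by DRaqL-SC3-seq. The Zp3 share of the pools was thus nearer to that of the later oocytes.

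**Figure D4:**
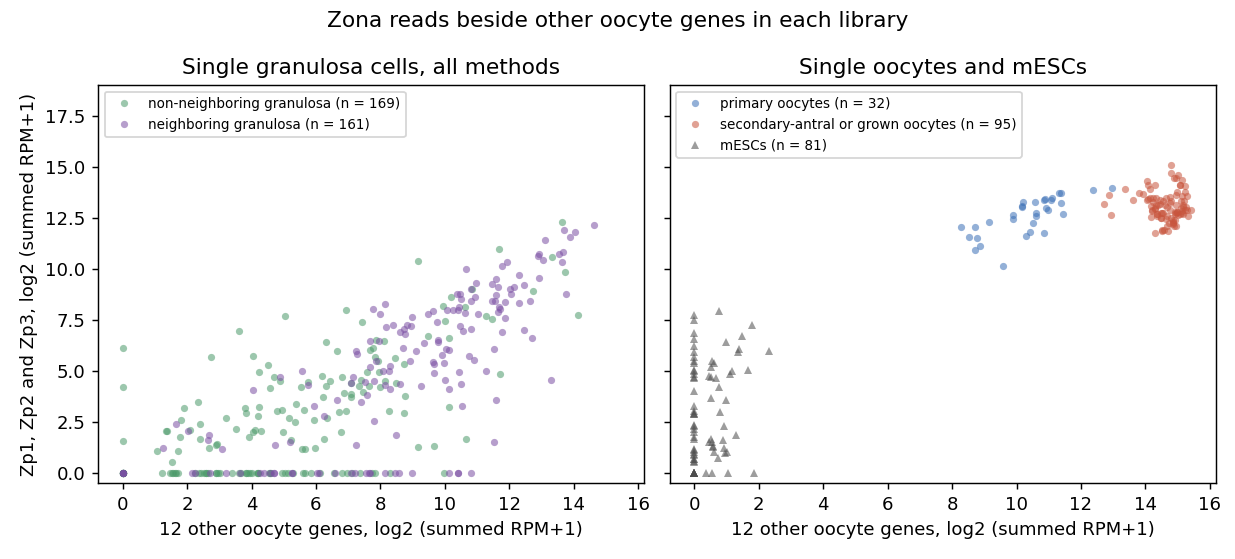
Each point is a single-cell library, with the summed level of 12 other oocyte genes on the x axis and of the zona genes on the y axis, both as log2 (RPM+1). Granulosa cells of all methods (left, 161 neighboring and 169 non-neighboring) spread along a band and along 0. Primary oocytes (right, 32) lie mostly left of the 95 other oocyte libraries at overlapping zona levels, and the 81 mESC libraries (triangles) reach 241 RPM of zona reads with at most 3.98 RPM of the 12 genes.

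In mESCs the reads were of Zp3 almost alone. Fresh cells had a Zp3 read in 39 of 45 libraries (86.7%, Clopper-Pearson 95% interval 73.2 to 94.9%), with 0, 6.94 and 241 RPM as lowest, median and highest value. Captured cells had one in 29 of 36 (80.6%, 63.98 to 91.8%), with a median of 1.72 RPM and a highest value of 210 RPM. Zp2 was read in 0 of 45 and 0 of 36 libraries. The 12 oocyte genes had 0.016 reads for each zona read in the fresh and 0.018 in the captured cells, below every ovarian group, of which primary oocytes by DRaqL-SMART-Seq v4 were lowest at 0.125. The 5 pluripotency genes had summed medians of 1524 and 1499 RPM in these cells.

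The exon tables of 5 oocytes and 10 mESCs came from libraries with Y-shaped adapters, in which reads reach further into the transcript and length can be taken into account. Levels in this paragraph are counts scaled to 1000000 exon reads (CPM) with the trimmed mean of M values (TMM), per kilobase of exon. Over the last 500 bases Zp3 had 7002 ± 1396 (SD, n = 5), Zp2 4863 ± 1902 and Zp1 3085 ± 638. Within an oocyte the Zp3 level there was 2.27 times that of Zp1, with log2 ratios from 1.163 to 1.21 in the 5 oocytes. The factor depended on the window, being 3.39 over the whole transcript and 5.84 at 1000 to 1500 bases from the 3′ end, and that of Zp3 to Zp2 was 1.52, 2.34 and 3.50 in the same windows. At 1000 to 1500 bases only exon 1 of Zp3 was counted, so the genes were not compared at like distances there. Over the last 500 bases Zp3 to Zp2 had log2 ratios from 0.27 to 1.11 and Zp2 to Zp1 from 0.07 to 0.94, so the order Zp3, Zp2, Zp1 held there in each of the 5 oocytes. At 1000 to 1500 bases Zp2 to Zp1 ran from -0.015 to 1.12, and the log2 ratios of Zp3 to Zp1 and of Zp3 to Zp2 had SDs of 0.30 and 0.28.

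Reads thinned out towards the 5′ end in all 3 transcripts. From the last 500 bases to the window 1000 to 1500 bases away, the level fell 67.4-fold in Zp1, 60.5-fold in Zp2 and 26.2-fold in Zp3. Exons were placed in windows by their midpoints. The further window held only exon 1 of Zp3, at 1151 bases, but reached Zp1 exon 3 at 1430 and Zp2 exon 8 at 1446.5. The falls therefore compare unlike distances. The last 500 bases held 82.4 ± 4.7% of the exon reads of Zp1, 75.6 ± 4.0% of Zp2 and 74.4 ± 5.1% of Zp3. An exon was counted as detected above 2 TMM-scaled CPM. By this measure 100% of the 8 Zp3 exons were detected in each oocyte, 88.3 ± 11.2% of the 12 Zp1 exons and 63.3 ± 5.0% of the 18 Zp2 exons. Exons 1 to 6 of Zp2, the longest transcript, were above the threshold in no oocyte, while 91.1 ± 13.9% of all its exons had at least 1 read.

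**Figure D5:**
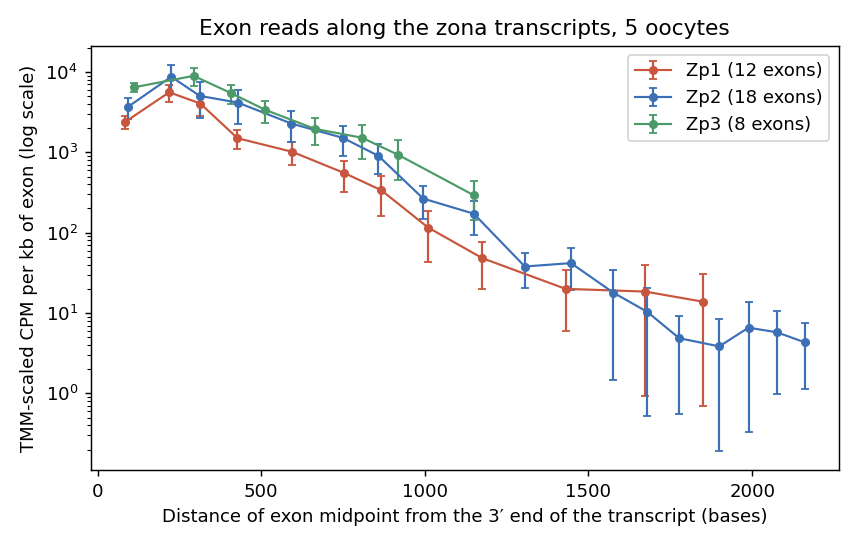
The x axis is the distance of each exon's midpoint from the 3′ end of the reference transcript in bases and the y axis, logarithmic, its TMM-scaled CPM per kilobase, as the mean of 5 oocytes with the SD. Lower arms are drawn short where the SD comes near or exceeds the mean. All 3 lines fall with distance, and the 18 exons of Zp2 extend furthest, where the 5 exons furthest from the 3′ end average 3.85 to 6.58.

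By mean number of reads the junctions gave the same order of genes as the exons. Each oocyte had 4527 ± 1347 junction reads of Zp1, 8084 ± 3721 of Zp2 and 9198 ± 2991 of Zp3. The oocyte table listed 19, 24 and 17 junctions of these genes. Above 2 TMM-scaled CPM were 75.8 ± 6.0%, 70.0 ± 13.6% and 68.2 ± 10.7% of them. A row with any read mostly passed this threshold, and the rows outnumber the reference junctions. These shares can therefore not be set against those of the exons. The reference transcripts have 11, 17 and 7 junctions, and as many of the most-read rows held 99.4, 99.9 and 97.9% of the junction reads. That table gave no coordinates, so rows were not placed on exons.

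The mESC junction table did give coordinates. Zp3 reads in the 10 mESCs, pooled since fresh and captured libraries here could not be checked against their labels, crossed 6 of the 7 junctions of its reference transcript, from exon 2 to exon 8. The junction of exons 7 and 8 printed above had 82 reads in 8 of 10 cells, and the highest cell had 89 Zp3 junction reads in all. Zp1 had 13 reads on the junction of exons 11 and 12 and 3 on that of exons 10 and 11. Zp2 had none. A Zp3 junction read was seen in 9 of the 10 mESC libraries, which had 0.123 to 19.4 RPM over exon reads against 2809 to 5684 in the oocytes.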

How the data were processed

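The authors deposited read counts per Ensembl gene for 562 libraries in 8 tables, made per the labels and the study's methods with fastp 0.20.0, cutadapt 1.16, HISAT2 2.1.0 (GRCm38) and HTSeq 0.10.0, counting reads within 10 kb of 3′ ends, and exon and junction counts made with featureCounts 2.0.1, multi-mapping reads included. Reads that fall far from a 3′ end are therefore missed. Here counts were divided by the total over protein-coding genes (RPM, pseudocount 1). Protein-coding depth was 12748 to 17506401 reads a library. Zp1, Zp2 and Zp3 were named with lists of zona transcription, coat and sperm-contact, other ZP-domain and cell type marker genes, and for likeness with the 5 protein-coding genes of highest Pearson r to each over 44 DRaqL-SC3-seq oocytes, among genes with a mean of 4 or more. The members and lists were chosen with earlier results of these data known. Of the blood, endothelial and pluripotency markers 0 of 3, 1 of 2 and 1 of 5 were tested in the pools, and 0 were called. Most of these markers were thus not examined by the test. Summed blood markers reached 16.5 RPM in neighboring and 1700 RPM in non-neighboring pools, with a median of 0 in both. Single cells, of which no animal is labelled, were described without tests. Pools were tested with edgeR 4.0.16 (quasi-likelihood, R 4.3.3, threshold 0.05), tested first on simulated data. Alternatives were DESeq2 1.42.0, other scalings and filters, an exact permutation test, a replicate block and leaving out libraries. No library was identical to another. Junction sequences are from GENCODE transcripts of GRCm38 and the promoter is from RefSeq.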

Additional observations from a re-analysis of the deposited data

Results flagged for a closer look

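Zp2 was at 0 RPM in the neighboring pool 7, far below the nearest neighboring pool at 39.4 RPM, and this was the only outlying sample among 30 combinations of group and gene examined, where chance gives about 1 in 20. Zp3 was read in 39 of 45 fresh and 29 of 36 captured mESC libraries, which the ovarian comparisons did not use. The highest mESC exon library had 89 junction reads of Zp3.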

How the results depend on the processing

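Of 626 recomputed values of 88 results, 541 kept their direction and their side of the threshold or moved by less than the spread. In the pools, DESeq2 called Zp2 (6.20) and 409 genes, and 359 in the bulk comparison, where no filter on low counts gave 463 and non-neighboring pools alone 0 (674 at an unadjusted p under 0.05 in edgeR). The exact permutation test of Zp2 gave a difference of 4.65 (two-sided p = 0.00466). Leaving out each number in turn gave 5 to 34 called genes in the pools and 0 to 57 in the bulk comparison, Zp1 at 5.45 to 6.67 and Zp3 at 5.86 to 6.66 in the pools, and Zp1 at -0.21 (without bulk library 4, a change of sign) to 0.73 in bulk. With at least 1 read as detection, 91.1% of Zp2 exons were detected.

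With the replicate number as a block, 3 genes were called in the pools, and Zp1 (6.03, edgeR adjusted p = 0.214) and Zp3 (5.98, 0.0909) were not. Same-numbered pools correlated at -0.0005 to 0.179 and only numbers 1, 6 and 7 matched best with their own, so the numbers are not known to pair the pools.

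Per spike-in read the stage differences of Zp1, Zp2 and Zp3 were 3.28, 1.13 (a change of sign) and 2.52 in SMART-Seq v4, 4.79, 2.71 (a change of sign) and 5.38 in DRaqL-SMART-Seq v4, and 3.88, 2.19 and 3.72 after formalin. Summed counts, which weight deep and read-rich libraries, gave 0.73 for Zp3 by stage and 1.59 for its ratio to Zp2 in DRaqL-SMART-Seq v4. Summed counts also lowered oocyte minus granulosa differences, to 3.92, 6.47 and 4.86 (DRaqL-SC3-seq), 6.58, 5.87 and 6.57 (SMART-Seq v4), 5.89, 7.36 and 6.55 (DRaqL-SMART-Seq v4), 4.12, 4.35 and 4.42 (formalin) and 5.07, 6.37 and 4.75 (captured cells of the single mouse) for Zp1, Zp2 and Zp3, and to 5.26 (Zp1) and 5.42 (Zp3) in dissociated cells. For position they gave 7.26 (Zp1, LCM-seq), 5.18 (Zp1, captured cells of the single mouse), 5.02 (Zp2, DRaqL-Smart-seq2), 7.44 (Zp2, DRaqL-SMART-Seq v4), 8.47 (Zp2, LCM-seq), 5.55 (Zp2, SMART-Seq v4) and 5.24 (Zp3, DRaqL-SMART-Seq v4). A pseudocount of 0.1 or 10 moved oocyte minus granulosa differences because most granulosa cells are near 0, to 11.21 or 5.79 (Zp1) and 12.91 or 7.52 (Zp2) in DRaqL-SMART-Seq v4, 11.22 or 6.08 (Zp1) in SMART-Seq v4 and 10.30 or 6.22 (Zp1) in captured cells of the single mouse, and 10 also to 7.20 (Zp2, SMART-Seq v4), 6.54 (Zp3, DRaqL-SMART-Seq v4) and 5.72 (Zp1, dissociated cells). Alternatives for the within-oocyte ratios, the spike-in scale for the zona transcription genes, and those leaving out the stage exceptions or single bulk libraries, were chosen after seeing the data. The cause of the other changes was not tested. Depth limits single granulosa cells most, since a cell at 12748 reads cannot show a gene at a few RPM.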
